A study of Mus musculus with 28 samples.

Results

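The genes described here encode proteins that pause, release and carry RNA polymerase II (Pol II) through a gene. They are 10 genes: Nelfa, Nelfb, Nelfcd and Nelfe for the 4 subunits of the negative elongation factor NELF, Supt4a and Supt5 for DSIF, Supt6 for the histone chaperone SPT6, Ssrp1 for a subunit of the histone chaperone FACT, and Tcea1 and Tcea3 for forms of TFIIS. They were chosen by name and not by a cut on their values, though with earlier results of these data known. All 10 were found among the 24984 rows of each deposited nascent RNA table.

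The assay was Bru-seq, a readout of nascent RNA: bromouridine (BrU) is given to living cells for minutes, and RNA that has incorporated it is captured with an antibody and sequenced. The cells were wild-type (WT) and EloA null mouse embryonic stem cells (mESC), which lack Elongin A, a subunit of the Elongin complex first found as a factor that speeds Pol II elongation. Steady-state cells received 2 mM BrU for 10 min. The other cells received 1 µM flavopiridol, an inhibitor of the pause-release kinase P-TEFb, for 60 min, and were then washed and labelled with BrU for 5 min or 10 min as transcription resumed (5-min and 10-min recovery). Each genotype had 2 libraries in each condition, so 12 libraries are used, and 16 further samples on protein binding were not analysed here. All cells were grown on mouse embryonic fibroblast feeders in medium with LIF and the inhibitors PD0325901 and CHIR99021, and the feeders were removed before labelling. The labels call the line CCE28 in the growth notes and CJ7 in the treatment notes, and how the EloA allele was made and whether the null cells were 1 clone are not given in the sources used here. The study describes its Bru-seq replicates as independent experiments, while the labels do not say whether these were separate cultures, so the p-values measure the spread between these pairs of libraries.

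A conflict between labels touches the steady-state comparison. The library titled as the first EloA null steady-state replicate carries a genotype tag of wild type, and it was grouped by its title. Eloa itself (chr4:136003370-136021649, minus strand) cannot settle the point, since a gene has a single value per library and the part of Eloa that was altered is not known. Eloa read 1.18 and 1.16 RPKM (reads per kilobase counted, scaled to the reads of the library) in the WT steady-state libraries against 1.96 and 1.89 RPKM in those titled EloA null, and it was also higher in both EloA null libraries at 5 min (5.14 and 6.25 against 2.96 and 2.82 RPKM) and at 10 min (8.74 and 8.93 against 4.65 and 6.51 RPKM). The library with the conflicting tag thus sat with the other EloA null library and not with the WT pair. Steady-state differences are given below also without it.

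The libraries held 9857531 to 28547355 reads, as recovered from the size of 1 read in the RPKM values. Of 12 pluripotent cell markers, 11 or 12 had a mean above 0.5 RPKM in every group, with Zfp42 the highest and Lin28a the lowest. Of 12 fibroblast markers, 0 to 2 passed that limit in any group, and their summed level ranged from 1.43 to 4.05 RPKM against 165 to 311 RPKM for the pluripotent list. The fibroblast sum was 2.20 and 2.51 RPKM in WT and 2.17 and 1.95 RPKM in EloA null cells at steady state, 2.305 and 2.67 against 1.83 and 1.43 RPKM at 5 min, and 4.05 and 3.11 against 2.73 and 2.20 RPKM at 10 min. Of the 12, 0 or 1 were at 0 in both libraries of a group, Thy1 in WT and Lum in EloA null cells at 5 min, and Dcn in WT and Lum in EloA null cells at 10 min. The sum was thus lower in the EloA null libraries in all 3 conditions, and the part of feeder RNA in the differences below was not tested.

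After initiation, Pol II halts a short distance into most genes. DSIF, made of SPT4 and SPT5, binds the polymerase and, with NELF, holds it there. P-TEFb then phosphorylates SPT5, NELF and Pol II, NELF leaves, and DSIF stays on as a positive factor. SPT6 and FACT, whose subunits are SSRP1 and SPT16, take nucleosomes apart ahead of the polymerase and rebuild them behind it, and TFIIS restarts a polymerase that has slid backwards by prompting it to cut its own RNA. Flavopiridol acts on the step at which NELF lets go, so the libraries show how the genes of this machinery themselves resumed transcription after that step was blocked.

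At steady state in WT cells, all 10 genes were transcribed and spanned a 4.06-fold range of levels per length. Ssrp1 and Tcea1, the widely used form of TFIIS, were highest at 4.81 ± 0.471 and 4.69 ± 0.0310 RPKM (mean ± SD, n = 2 here and below) at the 84.7th and 84.1st percentile of expressed genes, and their libraries overlapped. Supt4a followed at 2.95 ± 0.369 RPKM, overlapping Supt6 at 2.78 ± 0.113 RPKM. Supt5 read 2.26 RPKM in both libraries, and the NELF genes lay close together below it. Nelfb stood at 1.90 ± 0.260, Nelfa at 1.87 ± 0.0440 and Nelfe at 1.66 ± 0.106 RPKM, and Nelfcd read 1.56 and 1.44 RPKM in the pair of libraries. Tcea3, the TFIIS form best known from particular tissues, was lowest at 1.18 ± 0.113 RPKM. The median expressed gene stood at 1.91 RPKM, and 5 of the 10 genes were above it.

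The values were scaled to the length of introns, called the counted length here. The study describes counting reads over whole genes, so whether exon reads were included cannot be seen from the values. Each gene's values were whole multiples of a single read once its RPKM was multiplied by the length of its introns, which held in 12 of 12 libraries for all 10 genes. The counted length ran from 4604 bases in Nelfe (chr17:34850391-34856372, plus strand) and 5443 in Supt4a (chr11:87737551-87743623, plus strand) to 35938 in Nelfa (chr5:33897916-33936301, minus strand) and 37566 in Tcea1 (chr1:4857694-4897909, plus strand). The counts accordingly ranged from 58 reads, for Nelfcd and Nelfe at 5 min, to 6690, for Supt6 at 10 min. Counting error alone was 12.96% of the mean for Nelfe in WT cells at 5 min and 1.31% for Supt6 in EloA null cells at 10 min. Other annotated genes lie in introns of 3 of the 10: the pseudogene Gm6104 over 1546 bases in Tcea1, the snRNA gene Gm22572 over 105 bases in Nelfb and Mir7024 over 62 bases in Nelfa. Mir7024 lies on the strand of Nelfa, so its reads cannot be told apart from those of Nelfa. Gm6104 and Gm22572 lie on the strand opposite to the gene around them. Whether their reads were counted with that gene depends on the use of strand in counting, which is not known. Nascent reads from fewer labelled cells and from less synthesis per cell cannot be told apart in these bulk libraries.

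**Figure D1:**
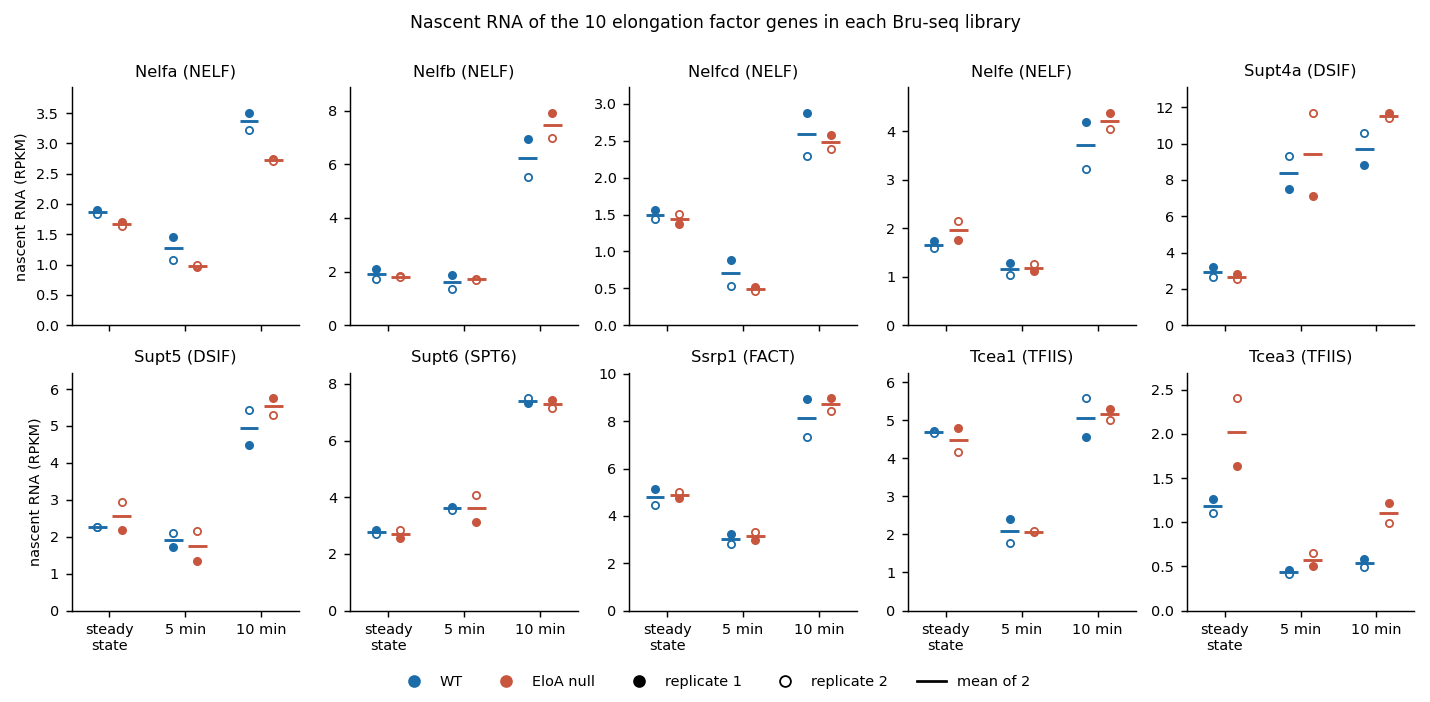
RPKM of each of the 10 genes in the 12 libraries (y axis, linear, from 0), at steady state and after 5 and 10 min of recovery (x axis); blue is WT, red is EloA null, filled and open circles are replicates 1 and 2 and bars are means of 2. Tcea3 is the gene whose EloA null circles sit above the WT circles in every condition, and Nelfa the gene whose EloA null circles sit below them.

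The first question was whether loss of Elongin A altered transcription of these genes. It was tested in each condition with limma on log2(RPKM + 0.1) over every gene with a mean above 0.5 RPKM in either genotype, with Benjamini-Hochberg adjustment over all of them. No gene of the whole table was called at an adjusted p under 0.05 in any condition (0% of 11345 at steady state, of 8984 at 5 min and of 10239 at 10 min), although 2083, 846 and 2098 genes had an unadjusted p under 0.05, or 18.4%, 9.42% and 20.5%. Likewise 0 of the 10 elongation factor genes were called, and 1, 0 and 2 of them had an unadjusted p under 0.05. These were Tcea3 at steady state and Tcea3 and Nelfa at 10 min. Counted by the ratio of mean RPKM instead, without a pseudocount, Tcea3 was the only gene of the 10 past 1.5-fold, higher in EloA null cells at steady state and at 10 min, against 7.21% and 9.41% of all tested genes. None of the 10 was past 1.5-fold higher at 5 min, against 5.4% of all tested genes, and none was past 1.5-fold lower in any condition, against 2.1%, 6.72% and 3.01% of all tested genes. The log2 fold change was above 0 for 4, 5 and 7 of the 10, beside 56.2%, 40.6% and 58.5% of all tested genes. Its median over the 10 was -0.05, 0.02 and 0.13 in the 3 conditions, beside 0.03, -0.06 and 0.06 for all tested genes. At 5 min, Nelfcd passed the RPKM limit only through WT and Tcea3 only through EloA null cells.

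Tcea3 differed most. At steady state Tcea3 read 1.26 and 1.104 RPKM in WT cells and 1.63 and 2.41 RPKM in EloA null cells. The groups did not overlap, but the EloA null pair was itself spread widely. At 5 min the values were 0.458 and 0.408 against 0.506 and 0.648 RPKM, and at 10 min 0.581 and 0.490 against 1.22 and 0.986 RPKM. The mean was thus 1.71, 1.33 and 2.06 times the WT mean, and in each condition both EloA null libraries lay above both WT libraries. At 5 min Tcea3 passed the RPKM limit only through its EloA null mean. On the log2(RPKM + 0.1) scale, which understates the change of low genes, the difference was 0.70 with a 95% interval of 0.16 to 1.24 (limma adjusted p = 0.197) at steady state, 0.34 with an interval of -0.33 to 1.00 (limma adjusted p = 0.759) at 5 min, and 0.92 with an interval of 0.46 to 1.37 (limma adjusted p = 0.128) at 10 min. Without the steady-state library that carries the conflicting tag the first of these was 0.97, and the other 9 genes then lay between -0.19 and 0.37 with 0 called. Without the other EloA null library it was 0.44. With a pseudocount of 1 in place of 0.1 the 3 differences were 0.46, 0.14 and 0.45. Over 14 or 15 alternative settings in each condition the sign of the Tcea3 difference held, and the limma adjusted p ranged from 0.153 to 0.579 at steady state, from 0.380 to 0.845 at 5 min and from 0.0525 to 0.588 at 10 min.

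Among the NELF genes, Nelfa was lower in both EloA null libraries than in both WT libraries in all 3 conditions. Its values were 1.90 and 1.84 against 1.70 and 1.63 RPKM at steady state, 1.46 and 1.07 against 0.957 and 1.00 RPKM at 5 min, and 3.50 and 3.22 against 2.74 and 2.71 RPKM at 10 min. NELF-A, its product, is a subunit that contacts Pol II. The difference was small, with an EloA null mean of 0.890, 0.773 and 0.810 times the WT mean, and the log2 differences of -0.16, -0.33 and -0.29 had limma adjusted p = 0.359, 0.682 and 0.218. The 5-min difference was -0.12 without WT replicate 1 and -0.53 without WT replicate 2, and -0.19 with a pseudocount of 1. Of 8216 genes tested in all 3 conditions, 10.1% were lower without overlap throughout, as Nelfa was, and 8.79% were higher throughout, as Tcea3 was. Such a pattern in 1 of 10 genes is close to those shares.

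The other NELF genes gave no steady pattern. Nelfb, which encodes the subunit at the centre of the complex, read 1.89 and 1.35 RPKM in WT and 1.74 and 1.70 RPKM in EloA null cells at 5 min, and 6.93 and 5.53 against 7.92 and 6.97 RPKM at 10 min. Its groups overlapped at steady state and at 5 min, and the EloA null pair was higher without overlap at 10 min by 0.26 on the log2 scale (limma adjusted p = 0.378). That difference came to 0.12 and 0.06 once trends with gene length or GC content were removed. Nelfe, for the RNA-binding subunit, was higher without overlap at steady state only, at 1.74 and 1.59 against 1.76 and 2.16 RPKM, with a log2 difference of 0.22 that came to 0.0059 with the GC trend removed. Nelfcd read 0.891 and 0.535 RPKM in WT against 0.515 and 0.460 RPKM in EloA null cells at 5 min, lower without overlap, from 58 to 83 reads a library. Its log2 difference of -0.44 had a 95% interval of -1.18 to 0.31, and it was -0.11 without WT replicate 1, -0.76 without WT replicate 2 and -0.20 with a pseudocount of 1.

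The DSIF and SPT6 genes differed little between genotypes. Supt6 gave the narrowest steady-state and 10-min values, with 2.86 and 2.70 against 2.58 and 2.84 RPKM and 7.31 and 7.50 against 7.45 and 7.14 RPKM. Its 95% interval at 10 min reached from 0.835-fold to 1.16-fold, so a 1.5-fold difference in either direction lay outside it. Supt5 read 2.26 and 2.26 against 2.18 and 2.95 RPKM at steady state, with overlap in all 3 conditions. Supt4a read 8.84 and 10.6 against 11.7 and 11.4 RPKM at 10 min, higher without overlap in EloA null cells, and its log2 difference of 0.25 (limma adjusted p = 0.314) came to 0.03 with the length trend removed. At the other times its libraries overlapped.

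Ssrp1 and Tcea1 overlapped between genotypes in every condition. Ssrp1 read 5.14 and 4.48 against 4.74 and 5.03 RPKM at steady state and 8.95 and 7.33 against 8.98 and 8.43 RPKM at 10 min. Tcea1 read 4.71 and 4.67 against 4.80 and 4.17 RPKM at steady state and 4.55 and 5.58 against 5.30 and 5.01 RPKM at 10 min. Their differences lay between -0.07 and 0.10 on the log2 scale, and the 95% intervals at steady state were 0.834-fold to 1.24-fold and 0.788-fold to 1.16-fold. At 5 min, where reads were fewest, the intervals of 4 of the 10 genes (Nelfe, Supt6, Ssrp1 and Tcea1) lay within 1.5-fold in both directions.

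**Figure D2:**
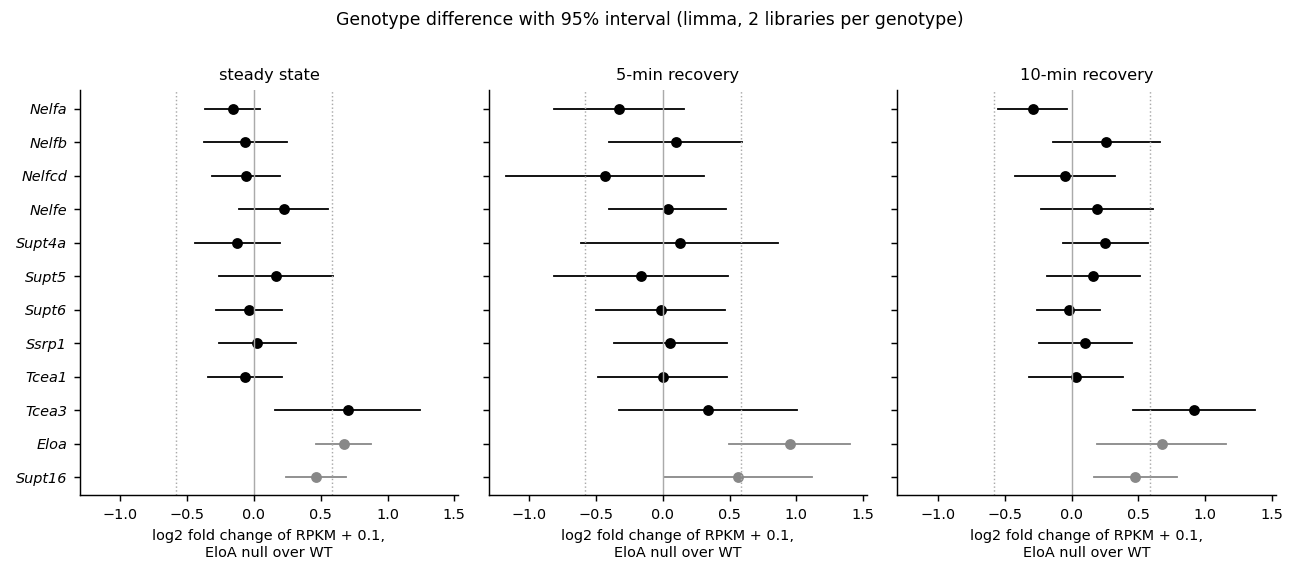
Log2 fold change of RPKM + 0.1, EloA null over WT (x axis), for each gene (y axis) in the 3 conditions; circles are limma estimates from 2 libraries per genotype, lines are 95% intervals, dotted lines mark 1.5-fold, and grey rows are Eloa and Supt16, which are not among the 10 genes. Among the 10 genes, Tcea3 alone has an interval that lies above 0 at steady state and at 10 min, and Nelfa alone has an interval below 0, at 10 min.

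Counting the groups that did not overlap, the EloA null libraries were higher for 2 of the 10 genes at steady state, 1 at 5 min and 3 at 10 min, beside 32%, 15.4% and 33.5% of all tested genes. They were lower for 1, 2 and 1 of the 10, beside 21.4%, 25% and 21.8%. The 5-min counts include Tcea3, higher, and Nelfcd, lower, each past the RPKM limit only through the genotype where it was higher. The whole table thus also split in both directions.

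Whether the genotype difference changed during recovery was asked with limma interaction terms over the 12 libraries. Of 8627 genes, 7 (0.0811%) were called for 5 min against steady state, and of 9823 genes 1 (0.0102%) for 10 min against steady state. None of the 10 elongation factor genes was among them in either test.

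The remaining subunits and paralogs were read beside the 10. Supt16, the partner of Ssrp1 in FACT, was higher without overlap in EloA null cells in every condition, at 6.18 and 6.09 against 8.42 and 8.58 RPKM at steady state, 5.74 and 6.59 against 7.85 and 10.6 RPKM at 5 min, and 10.7 and 11.8 against 14.7 and 16.8 RPKM at 10 min. Its log2 difference of 0.46, 0.56 and 0.48 lay near the median of its chromosome. That median, over the 416, 348 and 385 tested genes of chromosome 14, was 0.50, 0.46 and 0.51, and Supt16 stood at the 45.9th, 66.1st and 46th percentile of them. The ratio of Supt16 to Ssrp1 within a library, which no scaling of libraries can alter, was accordingly 1.20 and 1.36 in WT against 1.78 and 1.71 in EloA null cells at steady state. Tcea2, a further TFIIS form, was low at 0.613 and 0.701 RPKM in WT and EloA null cells at steady state. Supt4b, a copy of Supt4a with 1 exon inside Tpd52l1, had 2 to 30 reads a library, too few to compare. Iws1, whose product binds SPT6, was lower without overlap in EloA null cells in all 3 conditions, with means of 4.53 against 4.01 RPKM at steady state, 1.59 against 1.26 RPKM at 5 min and 4.70 against 4.19 RPKM at 10 min.

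Of 41 other genes of Pol II elongation, such as those of P-TEFb, the Paf1 complex, the super elongation complex and Elongin B and C, 41, 36 and 39 were tested in the 3 conditions and 0 were called. An unadjusted p under 0.05 was found for 7, 3 and 5 of them, beside 18.4%, 9.42% and 20.5% of all tested genes. Their groups were higher without overlap in EloA null cells for 12, 6 and 8 genes, beside 32%, 15.4% and 33.5% of all tested genes. They were lower for 9, 9 and 10, beside 21.4%, 25% and 21.8%. Their median log2 difference was -0.04, -0.07 and -0.04. The largest difference was that of Cdk12, a kinase of the Pol II tail, with means of 1.27 against 0.820 RPKM at 5 min and a log2 difference of -0.58 (limma adjusted p = 0.403). By the ratio of mean RPKM, 0.645, it was the only gene of the 41 past 1.5-fold in any condition, while on the log2(RPKM + 0.1) scale it was just short of that size. Of all tested genes, 6.72% were more than 1.5-fold lower at 5 min. Eaf1, a partner of the ELL elongation factors, was higher without overlap in all 3 conditions, with means of 20.2 against 28.7 RPKM at 10 min (log2 difference 0.51, limma adjusted p = 0.136). Like Supt16, it lies on chromosome 14, whose tested genes had median log2 differences of 0.50, 0.46 and 0.51. Those of Eaf1 were 0.40, 0.43 and 0.51. Gtf2f2, also of the 41 and on chromosome 14, was higher without overlap in all 3 conditions too. Its log2 differences of 0.34, 0.08 and 0.20 were below those medians.

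Tcea3 (chr4:136247936-136274903, plus strand) is also a neighbour of the targeted gene: its start lies 226 kb from the start of Eloa on the same chromosome. The other genes within 500 kb were therefore read. Of 22 such genes, 13 were tested at steady state, of which 6 were higher and 1 lower without overlap in EloA null cells, with a median log2 difference of 0.14. At 5 min 8 were tested, with 0 higher, 1 lower and a median of -0.02. At 10 min 13 were tested, with 9 higher, 0 lower and a median of 0.27. Of all tested genes, 32%, 15.4% and 33.5% were higher without overlap in the 3 conditions, and 21.4%, 25% and 21.8% were lower. Past 1.5-fold were 0, 0 and 3 of them, the last being Fuca1, Id3 and E2f2 at log2 differences of 0.82, 0.72 and 0.62. At steady state the differences nearest in size to that of Tcea3 were 0.50 for Id3 and 0.50 for E2f2, which lie between it and Eloa. Rpl11, also tested between them, stood at 0.14, and Hnrnpr, the next tested gene beyond Tcea3, at -0.10. On the other side of Eloa the differences ran from -0.01 for Pithd1, the nearest tested gene there, to 0.40 for Lypla2. The groups of Id3 overlapped, with an SE of 0.26 and as few as 53 reads in a library. Those of E2f2 did not overlap, with an SE of 0.095. Whether the place of Tcea3 near Eloa has a part in its difference was not tested.

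**Figure D3:**
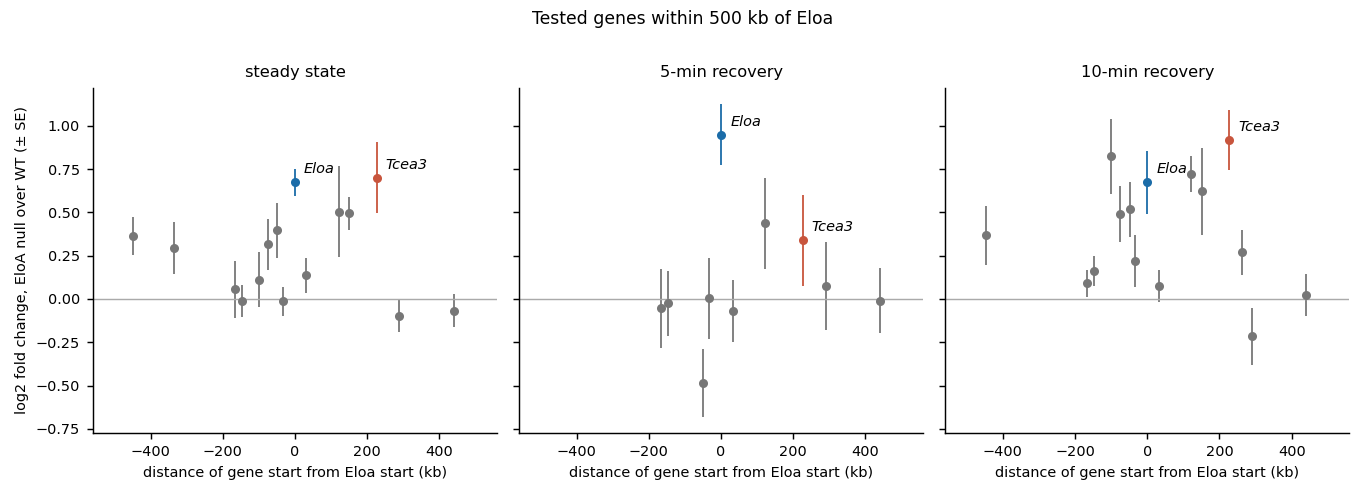
Log2 fold change of RPKM + 0.1, EloA null over WT (y axis, ± SE from limma), of the tested genes within 500 kb of Eloa against the distance of their start from the Eloa start in kb (x axis), in the 3 conditions. Tcea3 (red) and Eloa (blue) are the highest pair at steady state, while at 10 min several neighbours also lie above 0.5.

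The second question was how the 10 genes resumed transcription once flavopiridol was washed out. Levels were set beside steady state as a ratio of RPKM, with no test, since RPKM is relative to each library's own total and a change in total RNA synthesis cannot be seen in it. After 5 min in WT cells the median gene of the 10 stood at 0.688 times its steady-state level and 2 stood above it. After 10 min the median was 2.00 times and 9 of 10 were above. In EloA null cells the medians were 0.626 and 1.96 times, again with 2 and 9 above steady state. The 5-min direction depends on the scaling: with each table divided by its median over expressed genes, the 5-min medians were 1.03 times in WT and 1.05 times in EloA null cells, with 6 of the 10 above steady state in each, while at 10 min 9 were above. Over all 10758 genes expressed at steady state in WT cells the median ratio was 0.631 at 5 min and 1.03 at 10 min.

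The ratio varied with gene span over the whole table, so each gene was read beside the 200 expressed genes of nearest span. At 5 min in WT cells 5 of the 10 were above the median of their like and at 10 min 9 were, and in EloA null cells 6 and 9 were. Above the upper quartile of their like were 3 and 6 in WT and 2 and 5 in EloA null cells.

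Supt4a reached the highest ratio of the 10. It went from 3.21 and 2.68 RPKM at steady state to 7.51 and 9.30 RPKM at 5 min in WT cells, and from 2.80 and 2.57 to 7.11 and 11.7 RPKM in EloA null cells. That was 2.85 ± 0.429 and 3.50 ± 1.21 times steady state, beside medians of 0.839 and 0.649 times for genes of like span. All of the recovery libraries lay above all of the steady-state libraries. At 10 min the ratio was 3.30 ± 0.420 in WT and 4.298 ± 0.0785 in EloA null cells, at the 95.5th and 99th percentile of its like.

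Supt6 was the other gene above steady state at 5 min on the deposited scale, at 1.30 ± 0.0283 times in WT and 1.33 ± 0.243 times in EloA null cells. It is among the longest of the 10, with a span of 39224 bases (chr11:78206749-78245972, minus strand), and genes of its span had medians of 0.449 and 0.389 times. Tcea1 and Nelfa, of nearly the same span, stood at 0.448 ± 0.0957 and 0.677 ± 0.147 times in WT cells. At 10 min Supt6 was at 2.66 ± 0.0475 times in WT and 2.69 ± 0.0801 times in EloA null cells, at the 97.5th and 96.5th percentile of its like, while Tcea1 was at 1.08 ± 0.155 and 1.15 ± 0.0470 times, near the median of its like.

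The NELF genes and Supt5 were below steady state at 5 min and above it at 10 min in both genotypes as deposited. With each table divided by its median, Nelfb, Nelfe and Supt5 were above steady state at 5 min, at 1.28, 1.05 and 1.27 times in WT and 1.59, 1.01 and 1.13 times in EloA null cells, Nelfa was at 1.02 and 0.981 times, and Nelfcd was below it at 0.714 and 0.567 times. On the deposited scale Nelfb went from 0.853 ± 0.201 to 3.27 ± 0.521 times in WT and from 0.952 ± 0.0159 to 4.12 ± 0.371 times in EloA null cells. Nelfcd, of nearly the same span as Nelfb, went from 0.475 ± 0.168 to 1.73 ± 0.274 times in WT and from 0.340 ± 0.0274 to 1.73 ± 0.0911 times in EloA null cells. From 5 to 10 min the level of Nelfb was thus 3.84 times in WT and 4.33 times in EloA null cells, and that of Nelfcd 3.63 and 5.10 times. In WT cells Nelfe went from 0.699 ± 0.0987 to 2.23 ± 0.417 times, and Nelfa from 0.677 ± 0.147 to 1.80 ± 0.106 times. Supt5 (chr7:28314891-28338804, minus strand) went from 0.849 ± 0.118 to 2.19 ± 0.293 times. Ssrp1 followed the median of its like, at 0.630 ± 0.0582 and 1.69 ± 0.239 times beside 0.780 and 1.69.

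Tcea3 was the exception. In WT cells it stood at 0.366 ± 0.0294 times steady state at 5 min and only 0.452 ± 0.0540 times at 10 min, beside a median of 1.30 for genes of like span at 10 min, which put it at the 8th percentile of them. In EloA null cells it stood at 0.286 ± 0.0499 and 0.546 ± 0.0816 times, at the 12.5th percentile at 10 min. Its recovery libraries lay below the steady-state libraries of the same genotype throughout, and no other gene of the 10 was below steady state at 10 min in its mean. The EloA null level of 1.103 RPKM at 10 min was near the WT steady-state level of 1.18 RPKM.

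**Figure D4:**
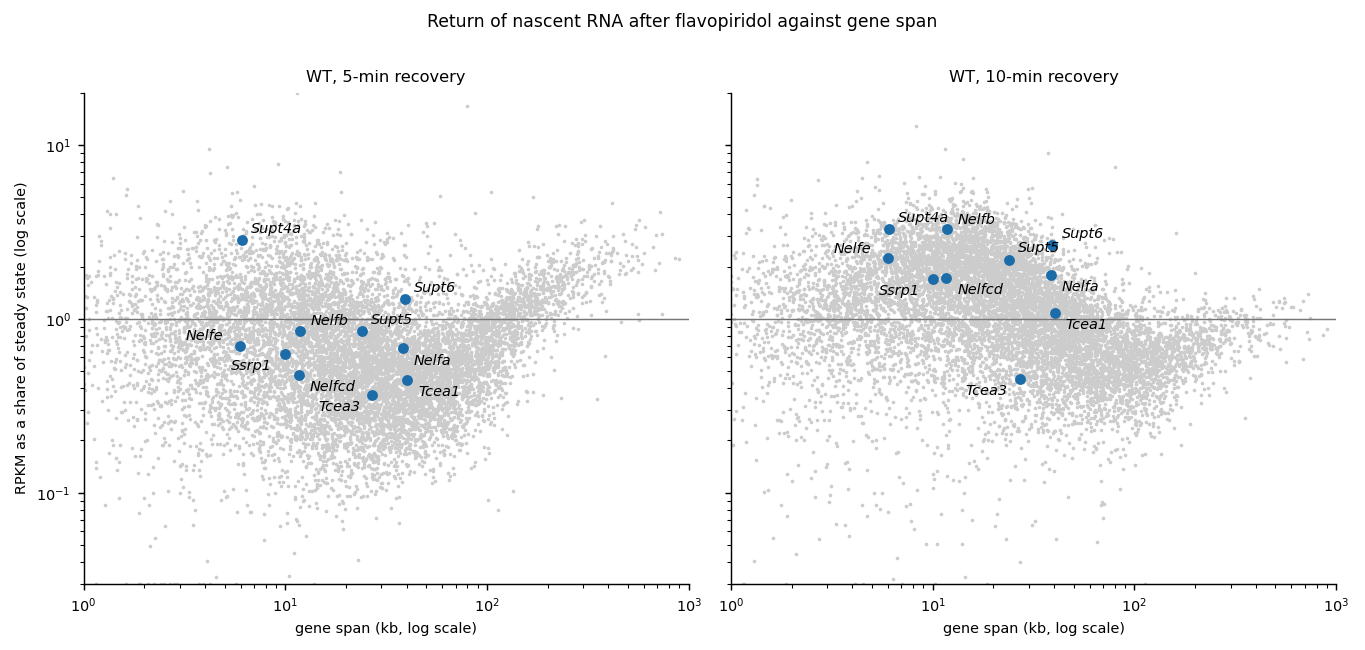
RPKM after recovery as a share of steady state in WT cells (y axis, log scale, points beyond the limits drawn at the edge) against gene span in kb (x axis, log scale) at 5 and 10 min; grey points are all expressed genes and blue points the 10 elongation factor genes, each a ratio of means of 2 libraries. Supt4a at 2.85 and Supt6 at 1.30 are the genes above 1 at 5 min as deposited (6 of the 10 are with each table divided by its median), and Tcea3 at 0.452 is the gene left below 1 at 10 min.

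Ratios between partner genes also moved during recovery, to different extents. Supt4a and Supt5 encode proteins that bind each other in equal numbers. Their ratio within a library was 1.42 and 1.19 in WT and 1.29 and 0.871 in EloA null cells at steady state, 4.35 and 4.42 against 5.33 and 5.45 at 5 min, and 1.97 and 1.95 against 2.03 and 2.15 at 10 min. The 2 genes differ in span: 100% of the counted bases of Supt4a and 46.1% of those of Supt5 lie within 10 kb of the start. Genes of like span had WT medians of 0.839 and 0.497 times steady state at 5 min. The part of gene span in these ratios was not tested. The highest NELF gene was 1.33 and 1.28 times the lowest in the WT steady-state libraries, 2.12 and 2.53 times at 5 min and 2.41 and 2.40 times at 10 min. In EloA null cells the NELF spread was 1.33 and 1.44 times at steady state, 3.38 and 3.70 times at 5 min and 3.07 and 2.92 times at 10 min. The ratio of Tcea1 to Tcea3 was 3.73 and 4.23 in WT and 2.94 and 1.73 in EloA null cells at steady state, 5.28 and 4.36 against 4.08 and 3.22 at 5 min, and 7.84 and 11.4 against 4.35 and 5.08 at 10 min, without overlap between genotypes in any of the 3. The ratio of Supt16 to Ssrp1, 1.20 and 1.36 in WT and 1.78 and 1.71 in EloA null cells at steady state, was 1.78 and 2.33 against 2.63 and 3.20 at 5 min, and at 10 min it was 1.19 and 1.62 against 1.63 and 1.99, overlapping steady state in each genotype. With 2 libraries against 2, an exact two-sided permutation test cannot go below p = 0.333, so none was used on these ratios.

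**Figure D5:**
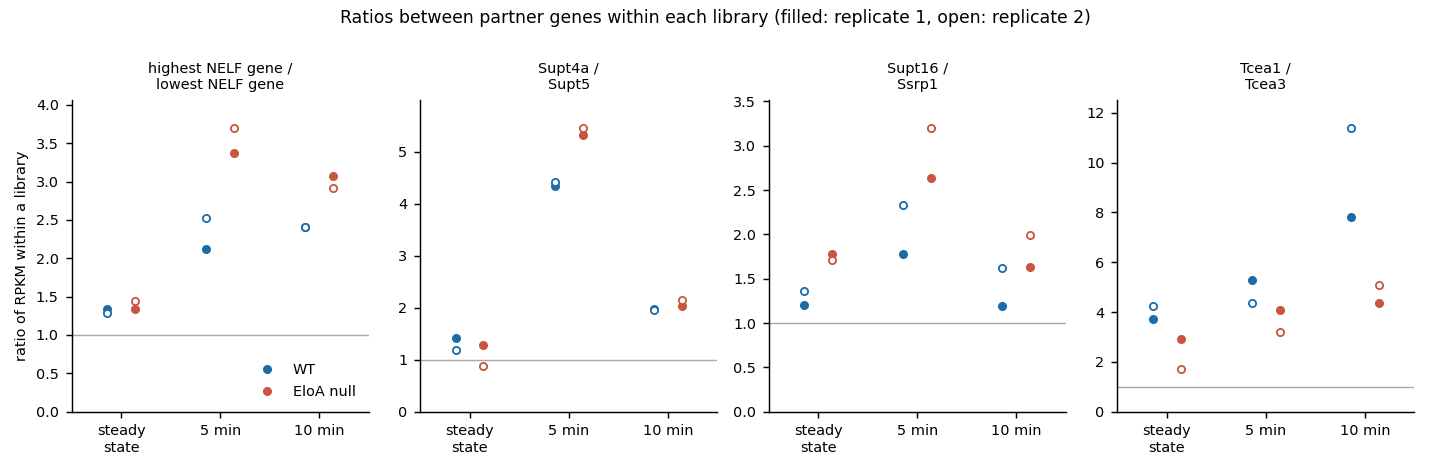
Ratio of RPKM between partner genes within each library (y axis, linear, from 0) at steady state and at 5 and 10 min of recovery (x axis); blue is WT, red is EloA null, filled and open circles are replicates 1 and 2, and the grey line marks equal levels. The DSIF ratio is highest at 5 min, between 4.35 and 5.45, in all 4 libraries, and the TFIIS ratio is higher in the WT pair in all 3 conditions.

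The order of the genes changed accordingly. In WT cells at 5 min Supt4a led at 8.40 ± 1.26 RPKM and stood at the 90.7th percentile of expressed genes, followed without overlap by Supt6 at 3.61 ± 0.0786 and Ssrp1 at 3.03 ± 0.280 RPKM. Tcea1, Supt5, Nelfb, Nelfa and Nelfe followed between 2.10 and 1.16 RPKM, each overlapping its neighbour, and Nelfcd and Tcea3 were last at 0.713 ± 0.252 and 0.433 ± 0.0348 RPKM. At 10 min Supt4a at 9.72 ± 1.24 and Ssrp1 at 8.14 ± 1.15 RPKM overlapped at the top, Supt6 was at 7.41 ± 0.132 RPKM, and Tcea3 was last again at 0.535 ± 0.0640 RPKM. In EloA null cells Supt4a led at both recovery times, at 9.40 ± 3.25 and 11.5 ± 0.211 RPKM.

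Promoter sequence was available for 7 of the 10 genes from RefSeq (build GRCm38.p6), in 8 windows of 250 bases before an annotated start. That start was not always the outermost of the gene. The Supt6 window and the Ssrp1 window with a GC box lay inside the annotated gene. Those of Supt5, Nelfa and Tcea3 reached partly into it. The Ssrp1 GC box and the Supt6 YY1 motif counted below are thus not upstream of the whole gene. Their GC content ran from 46.4% to 74.4% beside a median of 52.4% over 32851 promoters, and their CpG dinucleotides from 10 to 34 beside a median of 6. Letters were searched on both strands. The GC box GGGCGG was in 6 of 8 windows and in 32.7% of all promoters, AAGATGG, the core of the YY1 motif, in 3 (Supt4a, Supt5 and Supt6) and in 4.49%, CCGGAAG, an ETS motif, in 1 (Supt4a) and in 6.91%, CCAAT in 1 (Tcea3) and in 33.8%, and the TATA box TATAAA in 1 (Nelfb) and in 12.4%. A match is a description of the letters and not a binding site. The 150 bases before the outermost annotated start are shown for Supt4a, Tcea3 and Nelfa. Supt4a reached the highest share of steady state. Tcea3 reached the lowest, and differed most between genotypes at steady state and at 10 min. Nelfa was the gene lower in EloA null cells throughout. The stretches read 5′ to 3′ on the gene's strand, with the motifs above in capitals on either strand.
Supt4a, chr11:87737401-87737550, plus strand: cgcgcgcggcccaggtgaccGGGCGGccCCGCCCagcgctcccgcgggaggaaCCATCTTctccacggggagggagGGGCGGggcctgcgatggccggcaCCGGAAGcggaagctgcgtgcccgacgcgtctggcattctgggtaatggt
Tcea3, chr4:136247786-136247935, plus strand: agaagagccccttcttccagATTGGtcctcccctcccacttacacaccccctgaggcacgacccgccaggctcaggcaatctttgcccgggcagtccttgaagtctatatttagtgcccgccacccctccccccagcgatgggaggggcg
Nelfa, chr5:33936302-33936451, minus strand: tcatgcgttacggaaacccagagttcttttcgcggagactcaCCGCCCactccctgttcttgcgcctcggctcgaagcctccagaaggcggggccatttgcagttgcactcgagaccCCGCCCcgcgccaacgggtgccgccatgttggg
In these stretches Supt4a held 3 GC boxes, 1 ETS and 1 YY1 motif and 20 CpG dinucleotides, Nelfa 2 GC boxes and 15 CpG, and Tcea3 1 CCAAT motif, read on the opposite strand, and 6 CpG.

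For each of the 10, the expressed gene with the most similar profile over the 12 libraries was found by Pearson's r of log2(RPKM + 0.1), given as a description since the points share conditions and libraries. The nearest were Wsb1 for Nelfa, Exosc1 for Nelfb, Yeats4 for Nelfcd, Golga7 for Nelfe, Gm20604 for Supt4a, Rexo1 for Supt5, Emc7 for Supt6, Rundc1 for Ssrp1, Nup35 for Tcea1 and Ltbp4 for Tcea3, out of 7826 genes each. The r was lowest for Tcea3, at 0.980, and highest for Nelfb, at 0.999.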

How the data were processed

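The authors aligned Bru-seq reads with Bowtie2 (version 2.3.4.3, builds mm10 and dm3 named), counted them with featureCounts (version 1.6.1) and deposited RPKM values computed with edgeR, in 1 table per condition. The deposited RPKM values were checked to be whole reads over intron length at a tolerance of 0.05 reads in 96.5% to 96.8% of expressed genes with introns, using GRCm38 RefSeq annotation, which matched all but 155 names. Names held by several rows were left out. Whether counting used strand is not given in the sources used here.

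The genotypes were compared within each table with limma 3.58.1 in R 4.3.3 (intensity trend) on log2(RPKM + 0.1), over genes with a mean above 0.5 RPKM in either genotype, adjusted by Benjamini-Hochberg; since these are not counts, no count model was used. The script was tested on simulated data. Recovery ratios compare separate tables and carry no test. Named genes are the 10, Eloa, 41 other elongation genes, genes within 500 kb of Eloa and the most similar gene of each (mean above 1 RPKM, span of 1 kb or more). The genes and lists were chosen with earlier results of these data known. Alternatives covered pseudocount, filter, scaling, variance estimate, length and GC trends, the replicate block and leaving out each library. Counting errors cover the sampling of reads only.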

Additional observations from a re-analysis of the deposited data

How the results depend on the processing

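In no condition and under no alternative was any of the 10 genes called, in the comparison of genotypes or in the change of that difference. The count of all genes called at steady state (0) was 1 with an RPKM filter at 2, 81 with a robust variance estimate and 132 with all 12 libraries in one fit. At 5 min (0) it was 29 and 532 with the last 2 of these and 128 with the replicate block. At 10 min (0) it was 5 with a pseudocount of 1, 7 with the filter at 2, 12 with libraries centred on their medians, 6 with quantile normalization, 26 with the robust estimate, 264 with 12 libraries, 9 with the length trend removed and 11 with the GC trend removed. Leaving out 1 library gave 0 at steady state, 0 to 60 at 5 min (47 and 60 without WT replicate 1 or 2, 39 without EloA null replicate 1) and 0 to 33 at 10 min (31 and 33 without EloA null replicate 1 or 2), where the lone library left in a group is assumed to vary like the others. Same-numbered replicates had deviations that correlated at 0.101, 0.119 and 0.103 in the 3 conditions, over 2 pairs, and nothing in the labels pairs them. The replicate block otherwise left the count at 0 at steady state and at 10 min, and for the change of the genotype difference it gave 2 in place of 7 and 0 in place of 1. That change was also 1 and 21 for 5 min with a pseudocount of 1 and 0.01, 3 for 10 min with 0.01, and 0 to 20 and 0 to 1 when a library was left out, where the 5-min count was 2 and 3 without the WT steady-state replicate 1 or 2, 0 and 18 without the WT 5-min replicate 1 or 2, and 4 and 20 without the EloA null 5-min replicate 1 or 2. The causes were not tested.

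Several differences near 0 changed sign. With libraries centred on their medians the log2 difference was -0.035 for Ssrp1 at steady state, 0.051 for Supt6 and 0.064 for Tcea1 at 5 min, and -0.066 for Tcea1 at 10 min, and with quantile normalization -0.016, 0.0037, 0.047 and -0.052. With the length trend removed it was -0.10 for Ssrp1 at steady state, 0.10 for Supt6 and 0.12 for Tcea1 at 5 min, and -0.056 for Nelfe, 0.010 for Supt6 and -0.082 for Ssrp1 at 10 min. With the GC trend removed it was -0.12 for Ssrp1 and 0.057 for Tcea1 at steady state, 0.039 for Supt6 and 0.061 for Tcea1 at 5 min, and -0.069 for Nelfe, -0.028 for Supt5 and -0.065 for Ssrp1 at 10 min. When 1 library was left out the steady-state difference ranged from -0.20 to 0.067 for Nelfb, -0.12 to 0.0039 for Nelfcd, -0.048 to 0.37 for Supt5, -0.10 to 0.033 for Supt6, -0.074 to 0.12 for Ssrp1 and -0.17 to 0.032 for Tcea1. At 5 min it ranged from -0.13 to 0.33 for Nelfb, -0.097 to 0.17 for Nelfe, -0.23 to 0.48 for Supt4a, -0.48 to 0.16 for Supt5, -0.20 to 0.17 for Supt6, -0.034 to 0.15 for Ssrp1 and -0.21 to 0.21 for Tcea1. At 10 min it ranged from -0.21 to 0.11 for Nelfcd, -0.052 to 0.0077 for Supt6, -0.041 to 0.24 for Ssrp1 and -0.11 to 0.18 for Tcea1. Some differences that kept their sign when 1 library was left out still moved by over 1.5 times: Nelfe from 0.084 to 0.36 at steady state, and Nelfb from 0.10 to 0.42, Nelfe from 0.0027 to 0.38, Supt4a from 0.12 to 0.38 and Supt5 from 0.027 to 0.30 at 10 min. Tcea3 and Nelfa kept their sign under every alternative in all 3 conditions.

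With each table divided by its median, the median share of steady state over the 10 genes was 1.03 at 5 min and 1.88 at 10 min in WT cells and 1.05 and 1.81 in EloA null cells, and 6 and 9 of the 10 were then above steady state in each genotype. Leaving out 1 library gave 0.609 to 0.767 and 1.83 to 2.01 in WT and 0.571 to 0.670 and 1.80 to 2.11 in EloA null cells.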
